A study of Eutrema salsugineum with 2 samples.

Results

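Reads of 7 gene copies from 3 families were followed in the rosette transcriptomes of Eutrema salsugineum, a salt-tolerant relative of Arabidopsis thaliana. They are the genes that share a best A. thaliana hit with another copy at AT4G11000 (ankyrin repeat family, 3 copies), AT1G76810 (translation initiation factor eIF-2 family, 2 copies) or AT2G15220 (plant basic secretory protein family, 2 copies). These 7 genes come from a table of 17888 genes with reads. They were selected on their YK and SH reads, which lay almost wholly in YK, so these reads are given below as a description, without a test.

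YK is the accession from the Yukon and SH the accession from Shandong. Each was measured in 1 library of whole rosettes from sub-irrigated plants aged 4 weeks, grown with a 12-h photoperiod (22 °C by day, 20 °C by night) and collected in mid-dark. The seeds came from individual selfed plants, and rosettes were pooled by 5; the methods describe 4 biological replicates, while the table has 1 column of reads per accession. The genome used for alignment is that of SH, so all 7 loci are positions of the SH reference. In these reads no difference between YK and SH has a replicate check. The study also ran qRT-PCR on some of these genes, which is not used here. In whole rosettes fewer cells of a type cannot be told apart from less RNA per cell.

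Ankyrin repeats are short helical motifs that bind other proteins, and in A. thaliana many ankyrin repeat proteins also cross a membrane, among them regulators of defense such as ACD6. The A. thaliana locus AT1G76810, described as eIF-2 family, encodes eIF5B, a GTPase that helps the ribosomal subunits join at the start codon. Basic secretory proteins carry a signal for export from the cell, and the tobacco member NtPRp27 is known as a pathogenesis-related protein.

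The study's qRT-PCR primers are shown first, because they are the only letters of these genes held in the sources used here and because the eIF-2 gene Thhalv10021382m.g has a separate pair for each accession. Primers are printed 5′ to 3′, and capitals mark the bases that differ where a YK primer and its SH counterpart overlap without gaps:
Thhalv10021382m.g YK forward: CcctggaaaGAcgactgacaag
Thhalv10021382m.g SH forward: atcTcctggaaaTGcgactga
Thhalv10021382m.g YK reverse: gGtgggcgagatTgtgattg
Thhalv10021382m.g SH reverse: tgctaggTtgggcgagatG

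The forward primers overlapped over 18 bases, of which 15 were identical. With positions counted from 1 at the 5′ end of the overlap, the SH base first and the YK base second, the differences were T1C, T10G and G11A. The reverse primers overlapped over 13 bases with 11 identical, and differed at T2G and G13T. These are differences between designed primers; the gene sequences of the accessions were not analysed here.

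The other members with primers have 1 pair each. They are printed 5′ to 3′ as above:
Thhalv10029390m.g forward: ttacgccaaataacacccaaca
Thhalv10029390m.g reverse: tcccgaaatcacctgacaca
Thhalv10029246m.g forward: tgagccacatgatgcaaagg
Thhalv10029246m.g reverse: tcgaatggtgagagggtttgt
Thhalv10022994m.g forward: gcccggtggtggtgataag
Thhalv10022994m.g reverse: gccacaaacccattcctcaa

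The study counts Thhalv10029246m.g and Thhalv10022994m.g among the genes for which no specific primers could be made, owing to close paralogs. The pairs printed above for these genes therefore may not tell the copies apart. Close paralogs bear on the read counts too. Only uniquely aligned reads were counted, so a read that fits several copies equally well is missing from all of them, and how reads divide among near-identical copies is uncertain.

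The libraries held 431705 reads on genes in YK and 482275 in SH. Levels are given as RPM, the reads of a gene scaled to 1e+06 reads on genes, with 95% Clopper-Pearson intervals that cover counting error only, as reads carry no molecular identifiers. A count of 0 allows up to 3 reads, which is 6.95 RPM in YK and 6.22 RPM in SH. The 7 genes together had 325 reads in YK, or 753 RPM (interval 673 to 839), against 4 reads in SH. All 4 SH reads fell on Thhalv10021382m.g, and the other 6 genes had none.

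**Figure D1:**
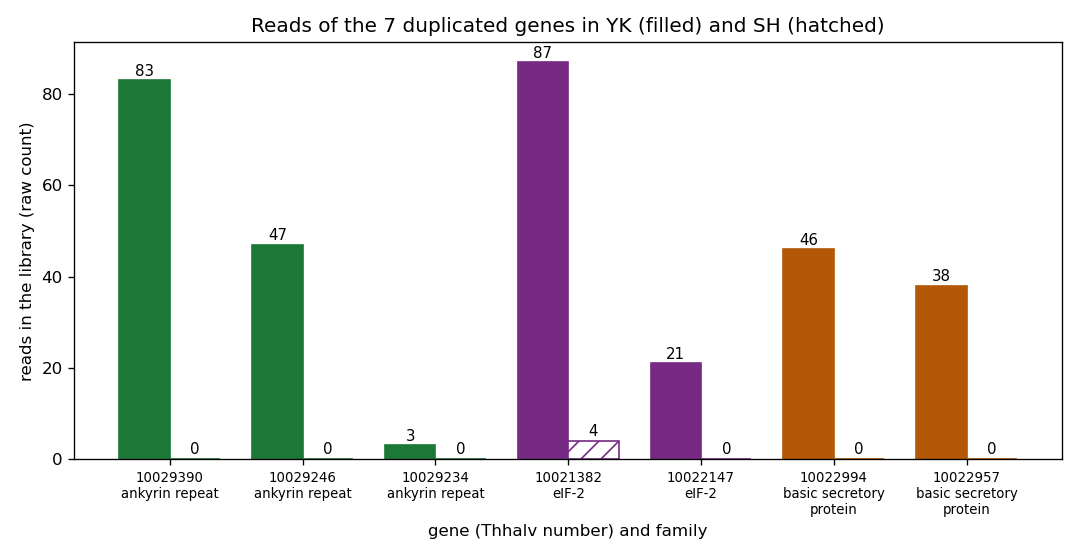
Raw reads (vertical axis) of each of the 7 genes in the YK library (filled bars) and the SH library (hatched bars), colored by family, with 1 library per accession and no error bars. YK reads ran from 3 to 87, and the only SH bar above 0 is the 4 reads of Thhalv10021382m.g.

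Among the 3 ankyrin repeat copies with the hit AT4G11000, nearly all reads came from a neighboring pair on scaffold 3. Thhalv10029390m.g (scaffold 3, 5382219 to 5382635) had 83 YK reads and 0 SH reads. This is 192 RPM in YK (interval 153 to 238). Set against the floor of 3 SH reads, YK was at least 27.7-fold higher. With counting error on both sides the YK to SH ratio was 22.0 or more. Thhalv10029246m.g, from 5365386 to 5366081, had 47 reads in YK and 0 in SH, at 109 RPM in YK (interval 80.0 to 145) and a lower bound of 12.2 on the ratio. The remaining copy, Thhalv10029234m.g, from 6162283 to 6163300, had 3 reads in YK and 0 in SH. Both values are at or under the floor, so a difference was not detectable at this depth for that copy. Summed over these 3 copies, there were 133 reads in YK and 0 in SH. Another ankyrin repeat gene, with a different hit and with reads in SH, is given below.

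The ankyrin copies shared their YK reads unevenly. Thhalv10029390m.g took 62.4% of the 133 reads (interval 53.6 to 70.7%) from 19.6% of the summed locus length. Thhalv10029246m.g took 35.3% (interval 27.3 to 44.1%) from 32.7% of the length, and Thhalv10029234m.g took 2.26% (interval 0.468 to 6.45%) from 47.8%. Per length of locus, the YK level of Thhalv10029390m.g was 2.95 times that of Thhalv10029246m.g (interval 2.04 to 4.31). This interval covers counting error and not the division of reads between similar copies.

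In the eIF-2 family, the loci counted as copies lie side by side on scaffold 13. They share a best hit, and whether they are separate copies or parts of the same gene was not tested. Thhalv10021382m.g, from 2456999 to 2458143, had 87 reads in YK and 4 in SH, which is 202 RPM in YK (interval 161 to 249) and 8.29 RPM in SH (interval 2.26 to 21.2). Its ratio of YK to SH reads was 21.8 (interval 8.20 to 81.6), and it is the only member with a ratio bounded on both sides. Thhalv10022147m.g, from 2455891 to 2456786, had 21 reads in YK and 0 in SH, at 48.6 RPM in YK (interval 30.1 to 74.4). Its ratio was 5.21 or more. Summed over the pair, YK had 108 reads and SH 4, a ratio of 27 (interval 10.2 to 101).

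Within the YK library, Thhalv10021382m.g held 80.6% of the reads of the eIF-2 pair (interval 71.8 to 87.5%) on 56.1% of the pair's length. Per length it was 3.24 times as high as Thhalv10022147m.g (interval 1.99 to 5.50). The 4 SH reads are too few to give the split between these copies in SH.

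In the basic secretory protein family, the copies on scaffold 11 had like levels. Thhalv10022994m.g, from 6512712 to 6513386, had 46 reads in YK and 0 in SH, or 107 RPM in YK (interval 78.0 to 142) and a ratio of 12.0 or more. Thhalv10022957m.g, from 6613236 to 6613910, had 38 reads in YK and 0 in SH, or 88.0 RPM in YK (interval 62.3 to 121) and a ratio of 9.81 or more. Both loci are 675 bp long. Thhalv10022994m.g took 54.8% of their 84 YK reads (interval 43.5 to 65.7%), and the per-length ratio between the copies was 1.21 (interval 0.771 to 1.91), so an equal split lies within counting error.

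Levels of different genes were compared as RPM per kb of locus, where the locus runs from start to end in the table and may include introns. The median over genes with YK reads was 7.22. On this scale Thhalv10029390m.g stood highest among the members in YK at 461 (interval 367 to 572), above 99.0% of the 16245 genes with YK reads. Thhalv10021382m.g followed at 176 (interval 141 to 217), Thhalv10022994m.g at 158 (interval 116 to 211), Thhalv10029246m.g at 156 (interval 115 to 208) and Thhalv10022957m.g at 130 (interval 92.3 to 179).

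The intervals of these 4 genes overlapped from each to the next, so their order is not settled by the reads. Thhalv10022147m.g was lower in YK at 54.3 (interval 33.6 to 83) and Thhalv10029234m.g lowest at 6.83 (interval 1.41 to 19.9), each with an interval apart from the gene above it. In all, 6 members thus lay above 89.0% of the genes with YK reads or higher, and Thhalv10029234m.g above 48.4%. As the members were chosen on their reads, these ranks only describe them and are no result about the families. The loci are short: they measure 417 to 1145 bp, against a median of 2210 bp over 17731 annotated loci, and between 1.82% and 14.4% of annotated loci are shorter. A short locus raises a per-length value built on a fixed number of reads. By YK reads alone, Thhalv10021382m.g (87) stood above Thhalv10029390m.g (83). The lead of Thhalv10029390m.g on this scale thus depends on its length of 417 bp. The part of length in the rest of this order was not tested.

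**Figure D2:**
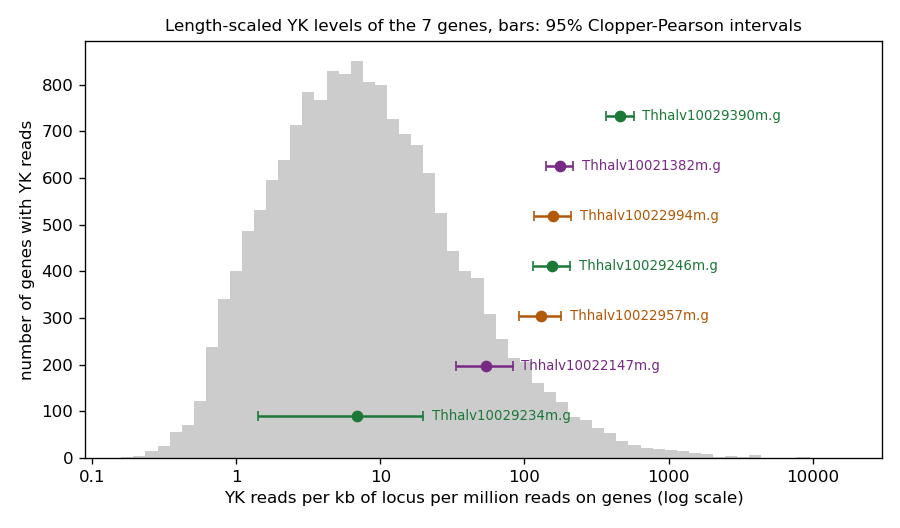
Distribution over genes with YK reads (gray) of the YK level in RPM per kb of locus (log axis), with the 7 members as points and 95% Clopper-Pearson intervals as bars; their heights on the vertical axis only separate them. Thhalv10029234m.g lies near the middle of the distribution at 6.83, and the other 6 members lie in its right part, from 54.3 to 461.

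Of the genes whose YK and SH reads summed to 10 or more, 195 of 10036, or 1.94%, had at least 4 times as many reads in YK as in SH (a log2 ratio of 2 or more after adding 0.5 reads to each count). Another 227, or 2.26%, had at least 4 times as many in SH. The median log2 ratio of YK to SH over these genes was 0.00. Of the 7 members, 6 reached 10 reads and all 6 passed the 4-fold rule toward YK, which is how they were chosen. Thhalv10029234m.g did not reach 10 reads.

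**Figure D3:**
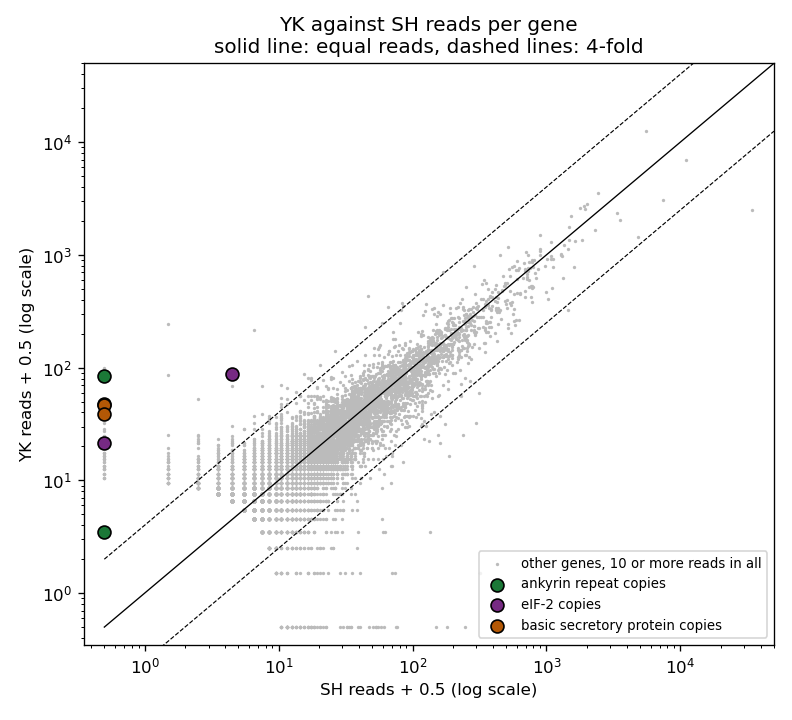
YK reads against SH reads per gene, both with 0.5 added and on log axes, for genes with at least 10 reads in all (gray) and the 7 members (colored by family); the solid line marks equal reads and the dashed lines a 4-fold difference. There, 6 members stand on the left edge at 0 SH reads, and Thhalv10021382m.g stands at 4 SH and 87 YK reads.

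A count of 0 in SH was uncommon for genes with this many reads: 39 of the 10036 genes, or 0.389%, had none in SH, and 75, or 0.747%, had none in YK. With at least 20 reads in YK and none in SH there were 13 genes among the 17888 of the table. Of these, 5 were members, which follows from how the members were chosen. The 5 genes outside the members with the most YK reads and none in SH had the pattern most like theirs, over 2 libraries only. XLOC_005768, a locus assembled from these reads, had 99 reads in YK, and Thhalv10015718m.g, whose hit AT5G56920 belongs to the cystatin superfamily, had 48. Thhalv10027552m.g had 32, Thhalv10016997m.g had 28 and Thhalv10004207m.g had 27. These 5 genes lie on scaffolds 12, 2, 1, 10 and 6, apart from the scaffolds of the members. This does not hold for all genes of the pattern: XLOC_016514, with 21 reads in YK and 0 in SH, lies on scaffold 3 with the ankyrin copies.

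Other genes of these families could be named only from the part of the study's annotation used here, which covers 1998 genes of the table and begins with genes seen in a single accession. It is too small a part of the 17888 genes to describe the families as a whole, and further copies may lie outside it. Of 18 A. thaliana translation initiation factor genes looked up, 3 were the hit of an annotated gene, which gave 2 genes besides the eIF-2 pair. Thhalv10002706m.g, with the eIF1A hit AT2G04520, had 17 reads in YK and 16 in SH, with a log2 ratio of YK to SH of 0.08 (interval -0.99 to 1.17). The eIF2 gamma subunit gene Thhalv10000157m.g, with the hit AT1G04170, had 9 reads in YK and 9 in SH. Both genes had nearly equal or equal reads in the libraries.

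Of 6 ankyrin repeat genes looked up, 3 were the hit of an annotated gene, which gave 2 genes besides the 3 copies. Thhalv10002620m.g, with the hit AT4G05040, had 31 YK and 15 SH reads. Its log2 ratio was 1.02 (interval 0.11 to 2.04), below the 4-fold rule. Thhalv10027033m.g, with the hit AT4G03440, had 3 reads in YK and 0 in SH, the same reads as Thhalv10029234m.g and likewise at the floor. Of 3 basic secretory protein genes looked up, only AT2G15220 itself was found. None of the 5 leaf, 4 seed, or 4 pollen and flower marker genes looked up was among the annotated rows, so the tissue label could not be checked against markers.

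The copies differ in how far apart they lie. The eIF-2 pair is separated by 212 bases and spans 2253 bp in all, with no other gene with reads between. Whether these adjacent loci belong to the same gene was not tested. The ankyrin pair is separated by 16137 bases, also with no gene with reads between, while Thhalv10029234m.g lies another 779647 bases along scaffold 3. The basic secretory protein copies are separated by 99849 bases. The table gives no strand, so the relative orientation of the copies is not given here.

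The genes with reads between the secretory protein copies had the opposite pattern in sum, carried mainly by 1 gene. All 6 had more reads in SH, but only 1 of them had at least 10 reads in the libraries together. Their summed reads were 1 in YK and 86 in SH. Most of these belonged to Thhalv10022932m.g (scaffold 11, 6528552 to 6529493), for which the sources used here give no A. thaliana hit. It had 1 YK and 74 SH reads, and its log2 ratio with 0.5 reads added was -5.63 (interval -11.53 to -3.69). The study names close paralogs for this gene too, so its reads may also be divided among copies. Thhalv10022979m.g, with the hit AT2G03510, had 0 reads in YK and 7 in SH. Thhalv10023064m.g, with the hit AT2G44450 and the name BGLU15, a beta-glucosidase, had 0 in YK and 2 in SH. Thhalv10022906m.g, Thhalv10022858m.g and Thhalv10022687m.g had 0 in YK and 1 in SH each.

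Without Thhalv10022932m.g, the other 5 genes had 0 reads in YK and 12 in SH, with an upper bound of -1.47 on the log2 ratio. Along this stretch, then, a copy with reads only in YK was followed by 6 genes with more reads in SH and by another copy with reads only in YK. For 4 of the 6 genes the counts are at or under the floor of 3 reads, so their direction is not settled. Nearest outside the copies, Thhalv10022719m.g, 41.1 kb before Thhalv10022994m.g, had 31 reads in YK and 18 in SH (log2 interval -0.10 to 1.71). Thhalv10022669m.g, 57.9 kb after Thhalv10022957m.g, had 1 read in each library. Genes with more reads in SH were not confined to the stretch between the copies. Thhalv10023207m.g, 96.8 kb after Thhalv10022957m.g, had 33 reads in YK and 121 in SH (log2 ratio -1.86, interval -2.48 to -1.31). Other genes outside the copies went either way, and those past the 4-fold rule are given below.

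Between the ankyrin copies Thhalv10029390m.g and Thhalv10029234m.g lie 13 genes with reads, which had 74 reads in YK and 113 in SH. Of these, 8 had more reads in SH, 4 more in YK and 1 equal numbers, so the stretch between these copies was mixed. The genes next to the ankyrin pair were Thhalv10028610m.g, 39.3 kb before it, with 71 reads in YK and 228 in SH (log2 ratio -1.68, interval -2.09 to -1.29), and Thhalv10028955m.g, 39.7 kb after it, with 22 reads in YK and 26 in SH. The next gene before, Thhalv10028863m.g at 55.1 kb, had 248 reads in YK and 59 in SH (log2 ratio 2.06, interval 1.66 to 2.51), past the 4-fold rule. The ankyrin pair therefore stood beside well covered genes that differed in opposite directions.

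Beside the remaining ankyrin copy Thhalv10029234m.g, the nearest genes were Thhalv10028987m.g, 88.1 kb before it, with 11 reads in YK and 32 in SH, and Thhalv10028682m.g, 8.52 kb after it, with 5 in YK and 4 in SH. Past the 4-fold rule were Thhalv10028640m.g, with 19 reads in YK and 2 in SH (log2 ratio 2.96, interval 1.20 to 6.39), and Thhalv10028519m.g, with 2 in YK and 15 in SH (log2 ratio -2.63, interval -6.08 to -0.80). They lie 120 and 125 kb before this copy, in the stretch toward the ankyrin pair, and they differed in opposite directions.

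The eIF-2 pair had close neighbors with few reads. Thhalv10021914m.g, 2.79 kb before it and with the hit AT3G19550, had 3 reads in YK and 0 in SH, and Thhalv10020616m.g, 9.24 kb after it, had 1 in YK and 0 in SH. Both are at or under the floor. Of its 5 flanking genes with at least 10 reads, the only one past the 4-fold rule was XLOC_008044, 35.5 kb before the pair, with 2 reads in YK and 25 in SH (log2 ratio -3.35, interval -6.77 to -1.64).

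**Figure D4:**
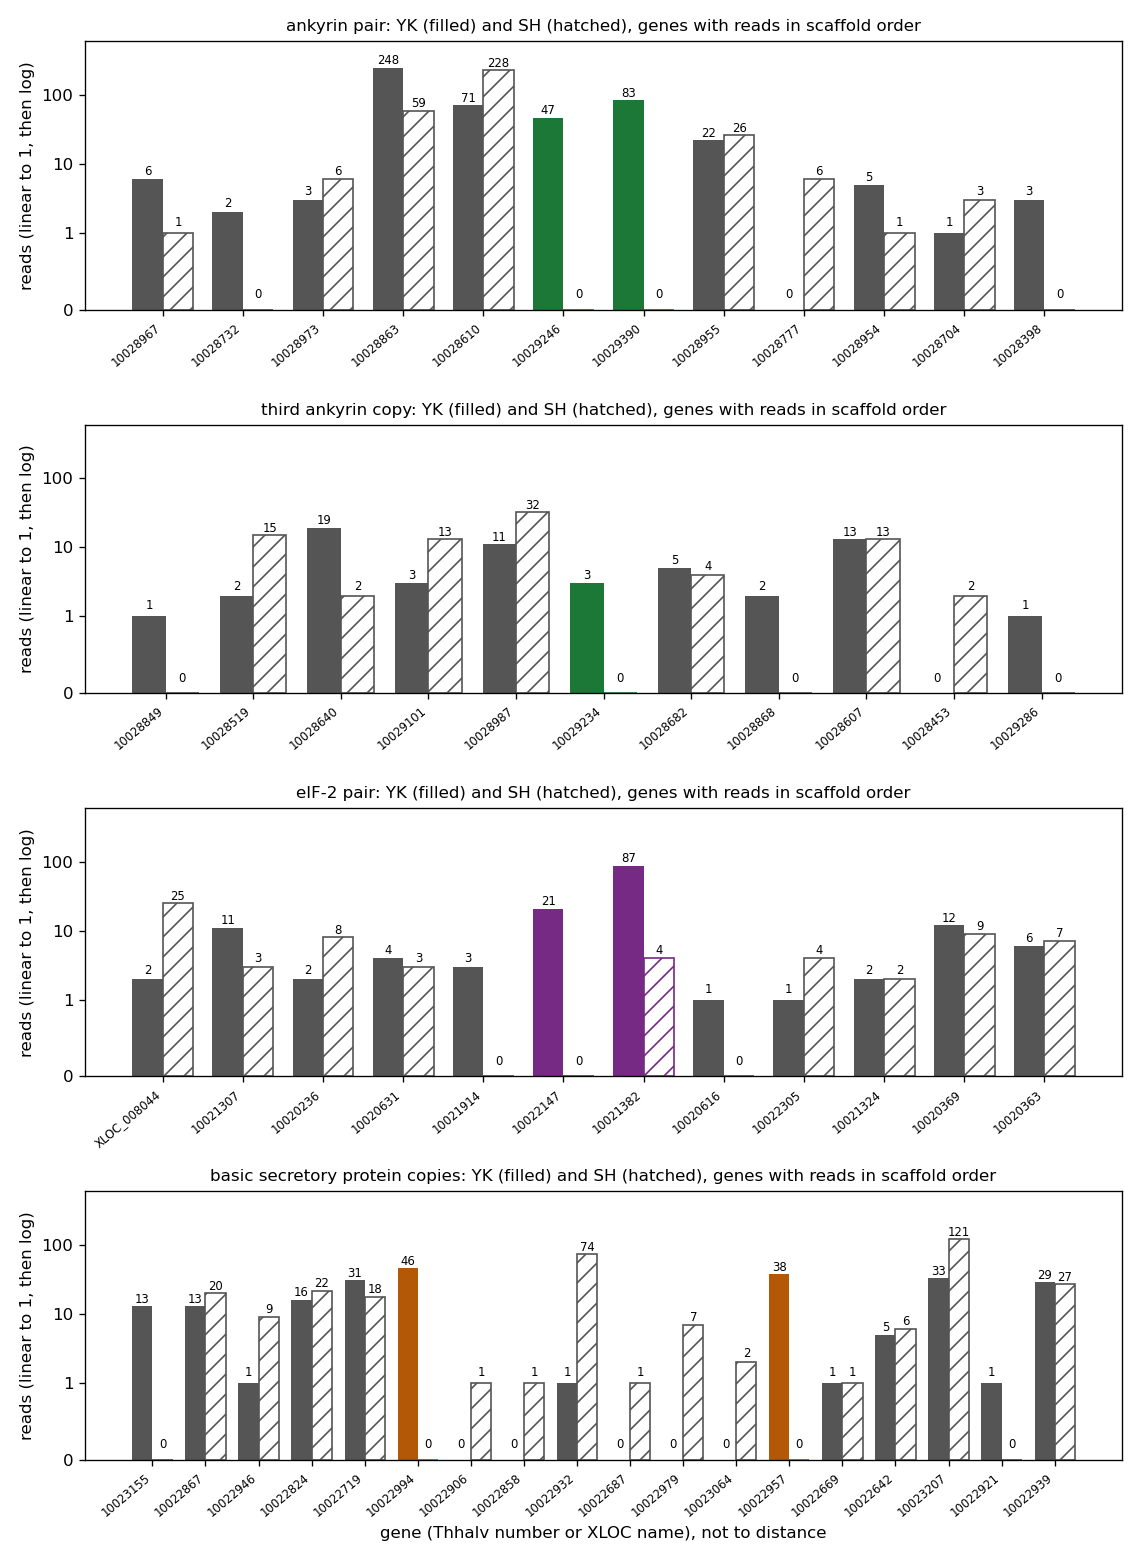
Reads (vertical axis, linear to 1 and logarithmic above) in YK (filled) and SH (hatched) for the members (colored) and the nearest 5 genes with reads on each side (dark gray), in scaffold order and not to distance; the lowest panel also shows the 6 genes between the secretory protein copies. In that panel the 6 genes between the copies have 0 or 1 read in YK and 1 to 74 in SH.

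Taking the nearest 5 genes with reads on each side of each copy or pair gave 46 genes, 22 of them with at least 10 reads. Of these 22, 3 had at least 4 times as many reads in YK and 4 at least 4 times as many in SH, together 31.8%, against 4.20% of all genes with at least 10 reads. Restricted to genes with 10 to 49 reads, it was 5 of 17 flanking genes, or 29.4%, against 5.07% of 6890 genes. Counting error still varies within this band, and the flanking genes were not matched to the other genes by reads. Beside those named above, 2 genes before Thhalv10022994m.g passed the rule. Thhalv10023155m.g, 280 kb away, had 13 reads in YK and 0 in SH. Thhalv10022946m.g, 47.4 kb away, had 1 in YK and 9 in SH. The median log2 ratio over the 22 genes was -0.34. These genes sit around loci that were chosen for their reads, some as far as 541 kb away, and the share is a description without a test.

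The ankyrin copies and Thhalv10022957m.g lie in stretches with few genes with reads. Within 50 kb, the ankyrin pair members each had 2 other genes with reads, 1 of them the other copy, and Thhalv10029234m.g and Thhalv10022957m.g had 1 each. The median over all 17888 genes was 16, and 5.85% of genes had 2 or fewer. Thhalv10022994m.g had 8 such genes, with 18.6% of genes having fewer. The eIF-2 copies had 18 each, close to the median, with 57.6% of genes having fewer. Gaps between neighboring genes with reads had a median of 2.01 kb, and 5.15% were at least 39 kb long, as were those on both sides of the ankyrin pair. Genes without reads are not in the table, so the stretches may hold further genes.

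**Figure D5:**
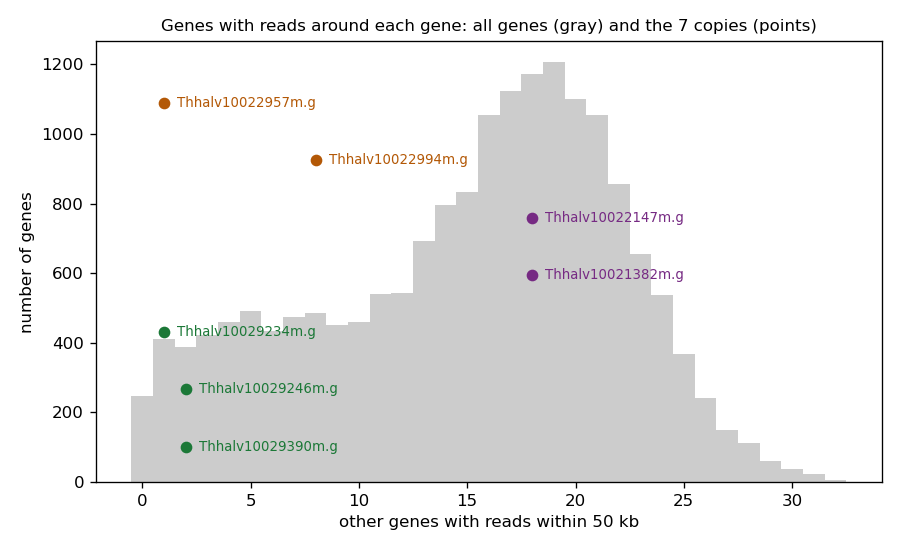
Number of other genes with reads within 50 kb (horizontal axis) for all 17888 genes (gray, number of genes on the vertical axis) and for the 7 members (points, separated in height only for reading). The 3 ankyrin copies and Thhalv10022957m.g had 1 or 2, Thhalv10022994m.g had 8 and the eIF-2 copies had 18.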

How the data were processed

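Reads were measured in 1 library of each accession by pyrosequencing of polyadenylated RNA, without strand. The authors trimmed the reads (quality 12, length 50 bp), aligned them to the SH genome of Phytozome 9.1 (GMAP in the methods, GSNAP in the submitters' notes), kept unique alignments and counted them per gene with HTSeq 0.5.4p5 in union mode, after adding loci assembled by Cufflinks with bedtools 2.17.0. The deposited counts are raw reads. The table also holds the authors' fold ratio, p-value and adjusted p-value (DESeq 1.14.0), which were not used. Its 1 blank row was left out.

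Median-of-ratios size factors were 1.00 for YK and SH, so reads were compared as deposited. Log2 ratios of YK to SH add 0.5 reads to each count. Ratio intervals (95%) come from the Clopper-Pearson interval of the YK part of a gene's reads, without added reads. They were run on simulated counts that held counting error only. Such a run cannot show whether they cover variation between plants or libraries. edgeR 4.0.16 was used for TMM factors only: with 1 library per accession, no model test was run. Python 3.11.15 and scipy 1.17.1 were used.

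The members and gene lists were chosen with earlier results of these data known. The text names the members, the nearest genes, flanking genes past the 4-fold rule, genes between copies (where 10 or fewer), the 5 genes of most like pattern and annotated family members. Thhalv10023207m.g and XLOC_016514 were named outside this rule, after the data were seen. Hits come from the study's annotation. None of the 7 members matched the RefSeq gene table (0 of 7). Alternatives were other scalings, added reads, read minimums, folds and flank sizes.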

Additional observations from a re-analysis of the deposited data

How the results depend on the processing

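Scaling shifts the log2 ratios of all genes alike, while added reads draw a ratio toward equality by an amount that depends on its reads. Neither could turn genes with 0 or 4 SH reads, and that the members stayed higher in YK is no check of them. Scaling by library totals adds 0.16 to each log2 ratio of YK to SH, TMM -0.03 and totals without the 5 most abundant genes 0.06. The log2 ratios depend on the reads added: with 3 in place of 0.5, Thhalv10029390m.g had 4.84 against 7.38 and Thhalv10029234m.g 1.00 against 2.81. Leaving out the copy with most reads, the summed log2 ratio was 6.66 for the ankyrin copies (8.06 with it). It was 5.43 for the eIF-2 copies (4.59) and 6.27 for the basic secretory copies (7.40). Counts of genes past the fold moved with the rule. Toward YK, 473 genes passed at a minimum of 4 reads, 78 at 20 and 1023 with no minimum, 1077 at 2-fold and 71 at 8-fold, against 195. Toward SH the numbers were 504, 112 and 1052 for the minimums, 1071 at 2-fold and 112 at 8-fold, against 227. With library totals 252 genes passed toward YK and 197 toward SH. Among flanking genes, none (0) passed toward YK within 50 kb of a copy, against 3 among the nearest 5. In either direction 4 of 16 passed within 50 kb (25.0%) and 8 of 39 among the nearest 10 (20.5%), against 7 of 22 (31.8%) and 4.20% of all genes. At 2-fold, 4 passed toward YK and 9 toward SH, together 59.1% against 21.4% of all genes. The summed log2 ratio of YK to SH over the genes between the secretory copies was -5.85, and -4.64 without Thhalv10022932m.g, an alternative chosen after seeing the data. No paired analysis was possible because each accession has 1 library. No replicate could be left out for the same reason.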
